A study of Homo sapiens and Mus musculus with 81 samples.

Results

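The circadian clock genes described here are DBP, TEF, PER1, PER2, NR1D1, NR1D2, CRY1, ARNTL, CLOCK and NPAS2, 10 of 17836 named genes on the human array and 10 of 21931 on the mouse array. They were selected by gene symbol, without regard to case on the mouse array, and each gene was read from its brightest probe set. The set was chosen with its intensities over time in the cell lines and by siRNA in mouse liver already known, so those values are given below as a description and without a test. Each value is the log2 of a deposited probe set intensity, so a difference of 1 is 2-fold. All 10 genes were found on both arrays, and no filter on low values was applied to them.

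The arrays measured messenger RNA after small interfering RNAs (siRNAs), short duplexes that lower a chosen transcript. HUH7 and PLC/PRF/5, both human hepatoma lines, received 1 of 7 siRNAs at 10 nM (RAD18, Apob-Mm1, Apob-Mm2 or 1 of 4 numbered APOB-Hs1 to APOB-Hs4) or were mock transfected, and were collected after 6, 12, 24 and 48 h, with no 24 h arrays for PLC/PRF/5. Hepa1-6, a mouse hepatoma line, received APOB-Hs1, APOB-Hs3 or APOB-Hs4 at 10 nM, or mock transfection, with the same 4 times. Mouse livers were taken 3 d after 3 mg/kg of APOB-Hs1, APOB-Hs3 or APOB-Hs4 in lipid nanoparticles, with 3 livers for each siRNA. That gave 32, 24, 16 and 9 arrays. There was 1 array for each treatment and time in the lines, and no untreated liver was analysed here. The labels used here give no hour of the day for any collection and no age or strain of the mice, and nothing says whether the 3 livers of a group were processed apart, so errors measure the spread between these samples.

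The mammalian clock is a loop of transcription and repression that runs in nearly every cell. ARNTL (also called BMAL1) pairs with CLOCK or with its paralogue NPAS2, binds E-box elements and activates the PER and CRY genes, whose proteins then inhibit the activators. A linked loop runs through the nuclear receptors NR1D1 and NR1D2 (REV-ERB alpha and beta), E-box targets that repress ARNTL and CLOCK through sites shared with the ROR activators. DBP and TEF are leucine zipper proteins that carry the rhythm to output genes through D-box elements, and DBP is among the most strongly rhythmic transcripts of liver. In a rhythmic tissue the ARNTL transcript peaks when the transcripts of DBP and the NR1D genes are low.

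The elements through which this loop acts can be read in the promoters of the human genes. RefSeq (GRCh38.p14) gave 14 promoter windows for the 10 genes, each from 250 bases before to 50 bases after an annotated start, and ARNTL was matched through its current symbol BMAL1. Searched on both strands, the E-box CACGTG was found in 4 of the 14 windows, from 3 genes, against 7.26% of 35114 windows of all genes. The D-box (TTATGTAA or TTACGTAA) was in 2 of 14 windows, against 1.01% of all windows. The ROR core AGGTCA was in 2 of 14, against 13.8%, and the cyclic AMP element TGACGTCA was in 0 of 14, against 1.85%. A match is only these letters in this window, and no match says nothing of a factor's binding elsewhere. The windows that held a match are shown for the genes the results below turn on, 5′ to 3′ on the gene's strand, with the matches in capitals.
NR1D2, chr3:23945871-23946170, plus strand: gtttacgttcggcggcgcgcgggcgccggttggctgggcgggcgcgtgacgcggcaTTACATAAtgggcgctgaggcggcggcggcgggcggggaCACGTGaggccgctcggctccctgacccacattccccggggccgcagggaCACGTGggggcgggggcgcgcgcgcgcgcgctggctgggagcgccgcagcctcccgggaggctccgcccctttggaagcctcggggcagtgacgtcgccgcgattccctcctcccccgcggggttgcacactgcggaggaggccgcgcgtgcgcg
PER1, chr17:8152355-8152654, minus strand: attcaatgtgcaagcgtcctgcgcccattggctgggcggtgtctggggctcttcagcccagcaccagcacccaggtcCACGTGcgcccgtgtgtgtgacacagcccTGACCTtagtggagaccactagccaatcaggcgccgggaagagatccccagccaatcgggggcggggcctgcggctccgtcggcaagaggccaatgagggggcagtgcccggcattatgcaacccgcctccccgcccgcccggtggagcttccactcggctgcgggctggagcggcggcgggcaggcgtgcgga
PER2, chr2:238288561-238288860, minus strand: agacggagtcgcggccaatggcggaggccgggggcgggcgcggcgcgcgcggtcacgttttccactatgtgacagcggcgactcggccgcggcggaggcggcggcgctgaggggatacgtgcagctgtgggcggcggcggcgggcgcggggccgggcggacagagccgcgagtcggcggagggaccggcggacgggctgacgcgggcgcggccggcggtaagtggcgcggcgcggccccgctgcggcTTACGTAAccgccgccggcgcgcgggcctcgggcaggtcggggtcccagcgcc
TEF, chr22:41381692-41381991, plus strand: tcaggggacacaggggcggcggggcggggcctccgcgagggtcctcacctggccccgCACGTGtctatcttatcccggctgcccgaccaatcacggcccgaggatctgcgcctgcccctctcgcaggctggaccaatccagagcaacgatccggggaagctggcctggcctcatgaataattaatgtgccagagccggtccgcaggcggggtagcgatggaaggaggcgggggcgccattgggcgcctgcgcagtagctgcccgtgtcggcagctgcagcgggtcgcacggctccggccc
ARNTL, chr11:13277540-13277839, plus strand: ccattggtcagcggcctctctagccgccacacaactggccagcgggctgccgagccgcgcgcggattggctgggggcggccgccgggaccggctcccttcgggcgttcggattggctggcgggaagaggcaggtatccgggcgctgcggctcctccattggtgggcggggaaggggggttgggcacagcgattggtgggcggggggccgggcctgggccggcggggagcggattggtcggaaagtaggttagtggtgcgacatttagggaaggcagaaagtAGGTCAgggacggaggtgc
The NR1D2 window held E-boxes whose first bases lay 155 and 105 bases before the start, and a D-box, read here on the opposite strand, 194 bases before it. In PER1 an E-box lay 173 bases before the start and a ROR core, on the opposite strand, 144 bases before it. The PER2 window held a D-box whose first base lay 3 bases before the start, so that it spans the start. TEF had an E-box 193 bases before the start shown and another 195 bases before a further annotated start. The ARNTL window held a ROR core 32 bases after the start. No window of DBP, NR1D1, CRY1, CLOCK or NPAS2 held any of the 4 elements.

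The targeted gene checked the labels. APOB, which encodes the structural protein of very low density lipoprotein, fell with each of the 4 APOB-Hs siRNAs, by log2 differences from mock of -1.69 to -2.51 in HUH7 and -2.54 to -3.27 in PLC/PRF/5, and with the 3 used in Hepa1-6 by -2.32 to -2.64. It was also lower than mock with Apob-Mm1, by -1.27 in HUH7 and -2.44 in PLC/PRF/5. With Apob-Mm2 the differences were -0.81 and -1.82, and none with either Apob-Mm siRNA passed the test. With RAD18 they were 0.01 and -0.04. Apob averaged 11.19 ± 0.06 in the APOB-Hs1 livers, 11.41 ± 0.27 in the APOB-Hs3 livers and 10.73 ± 0.17 in the APOB-Hs4 livers (log2, SD, n = 3 each). None of those livers' differences passed the test. All 3 siRNAs target APOB and no untreated liver was analysed, so that comparison could not show a fall from an untreated level. Of the hepatocyte markers found, 8 of 9 in HUH7, 7 of 9 in PLC/PRF/5, 5 of 10 in Hepa1-6 and 10 of 10 in liver were brighter than the median gene, with Serpina1a, an abundant plasma protein of hepatocytes, dimmest in Hepa1-6 at 2.59. Scatter about the fit was greatest on 4 arrays, liver 1 of APOB-Hs4 (residual SD 0.166), the HUH7 array of APOB-Hs1 at 12 h (0.166), and the PLC/PRF/5 arrays of APOB-Hs4 (0.186) and APOB-Hs2 (0.199) at 48 h, against medians of 0.0983 to 0.128. Values without these arrays are given beside the larger member differences that use them. Members dimmer than the median gene of their system, and so closest to background, were DBP, TEF, PER1 and ARNTL in HUH7. They were TEF, PER1, PER2, NR1D2, ARNTL and NPAS2 in PLC/PRF/5, in Hepa1-6 Per2, Cry1 and Npas2, and in liver Cry1.

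In the mouse livers the clock genes fell into opposing sets. Dbp and Tef were low and Arntl, Clock and Npas2 were high in livers given APOB-Hs1, and the reverse held in most livers given APOB-Hs3 or APOB-Hs4. Dbp ran from 4.98 to 9.94 over the 9 livers, while Per1 ran from 6.68 to 7.31. These values are a description. In bulk tissue, fewer cells of a type and less RNA per cell cannot be told apart.

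Among the outputs, Dbp, the D-box activator, had log2 intensities of 4.98, 5.37 and 7.19 in livers given APOB-Hs1, 8.91, 8.72 and 9.10 with APOB-Hs3, and 7.89, 9.94 and 9.40 with APOB-Hs4. All 3 livers of APOB-Hs1 lay below the other 6, with liver 3 nearer to them than livers 1 and 2. The APOB-Hs1 mean was below the mean of the other siRNAs by a log2 difference of -3.15 (SE 0.486), or 8.87-fold. Leaving out each liver in turn gave -3.82 to -2.72. Tef, its relative, read 6.90, 7.06 and 7.64 with APOB-Hs1, 8.22, 8.16 and 8.23 with APOB-Hs3, and 7.94, 8.89 and 8.52 with APOB-Hs4. Again the APOB-Hs1 livers were the lowest 3, and the difference was -1.13 (SE 0.197). The order of the 9 livers by Tef was that by Dbp, liver for liver.

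The positive arm ran the other way. Arntl, the shared partner of CLOCK and NPAS2, read 8.34, 8.19 and 7.77 with APOB-Hs1, 7.35, 6.78 and 6.63 with APOB-Hs3, and 7.63, 5.56 and 6.42 with APOB-Hs4. The APOB-Hs1 livers were the highest 3, by 1.37 (SE 0.35), and liver 1 of APOB-Hs4 came next. A second, dimmer Arntl probe set, with a mean of 4.67 in liver, differed by 0.18. Clock read 9.35, 9.30 and 9.19 with APOB-Hs1, 8.96, 9.01 and 8.94 with APOB-Hs3, and 9.03, 8.47 and 8.64 with APOB-Hs4. Its range was narrow, but the 3 livers of APOB-Hs1 lay above the other 6, while APOB-Hs3 and APOB-Hs4 overlapped, and its 3 probe sets differed by 0.44, 0.42 and 0.33. Npas2 read 5.93, 5.68 and 5.33 with APOB-Hs1, 5.46, 4.84 and 4.91 with APOB-Hs3, and 5.04, 4.54 and 4.69 with APOB-Hs4. The groups overlapped by 1 liver of each of APOB-Hs1 and APOB-Hs3, with a difference of 0.73 (SE 0.169).

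Of the repressors, Per2, which with CRY proteins inhibits the activators, read 6.85, 6.16 and 6.50 with APOB-Hs1, 7.66, 7.31 and 7.38 with APOB-Hs3, and 6.87, 8.27 and 7.99 with APOB-Hs4. The APOB-Hs1 livers were the lowest 3, though liver 1 of APOB-Hs1 and liver 1 of APOB-Hs4 were almost level. The difference was -1.08 (SE 0.259), and 0.03 by a second Per2 probe set with a mean of 4.68. Per1, which also answers acutely to glucocorticoid and cyclic AMP, read 7.06, 6.80 and 6.98 with APOB-Hs1, 6.68, 6.81 and 7.31 with APOB-Hs3, and 6.83, 7.09 and 7.08 with APOB-Hs4. The 3 groups overlapped throughout, and the difference was -0.02 (SE 0.131). Cry1 read 5.73, 5.28 and 4.84 with APOB-Hs1, 4.55, 4.85 and 4.87 with APOB-Hs3, and 5.00, 4.46 and 4.41 with APOB-Hs4. It stood with the positive arm, higher by 0.60 (SE 0.186) with APOB-Hs1, with overlap and close to background.

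The nuclear receptors followed Dbp. Nr1d1, the repressor of Arntl, read 8.05, 8.59 and 9.11 with APOB-Hs1, 9.62, 9.70 and 9.65 with APOB-Hs3, and 8.99, 9.65 and 9.61 with APOB-Hs4. Nr1d2 read 9.59, 9.93 and 10.49 with APOB-Hs1, 10.78, 10.88 and 10.94 with APOB-Hs3, and 10.47, 11.12 and 10.90 with APOB-Hs4. In both genes liver 3 of APOB-Hs1 was just above liver 1 of APOB-Hs4, and the other 2 livers of APOB-Hs1 were the lowest. The differences were -0.96 (SE 0.203) for Nr1d1 and -0.84 (SE 0.182) for Nr1d2.

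Counted over the members, 5 of 10 did not overlap between the APOB-Hs1 livers and the other 6, beside 5.93% of all 21931 genes. For APOB-Hs3 the count was 0 of 10 beside 3.73%, and for APOB-Hs4 0 of 10 beside 4.62%. The rule for the members used these values, so nothing is read from the counts. Without liver 1 of APOB-Hs4, whose array scattered most, the APOB-Hs1 differences were -3.45 for Dbp, -1.26 for Tef, -1.29 for Per2, -1.06 for Nr1d1 and -0.93 for Nr1d2, and 1.64 for Arntl, 0.52 for Clock, 0.80 for Npas2 and 0.69 for Cry1, each larger in size than with it. Per1 differed by -0.06. Leaving out each liver in turn gave smaller sizes as well. The ranges were -1.35 to -0.98 for Tef, -1.29 to -0.91 for Per2, -1.22 to -0.69 for Nr1d1 and -1.09 to -0.64 for Nr1d2. They were 1.12 to 1.64 for Arntl, 0.38 to 0.52 for Clock, 0.59 to 0.89 for Npas2 and 0.37 to 0.82 for Cry1. The 3 comparisons share their livers. Against the mean of the other siRNAs, Dbp differed by 1.45 with APOB-Hs3 and 1.70 with APOB-Hs4, or 1.15 and 2.29 without liver 1 of APOB-Hs4. Arntl differed by -0.40 with APOB-Hs3 and -0.97 with APOB-Hs4, or -0.13 and -1.51 without that liver.

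**Figure D1:**
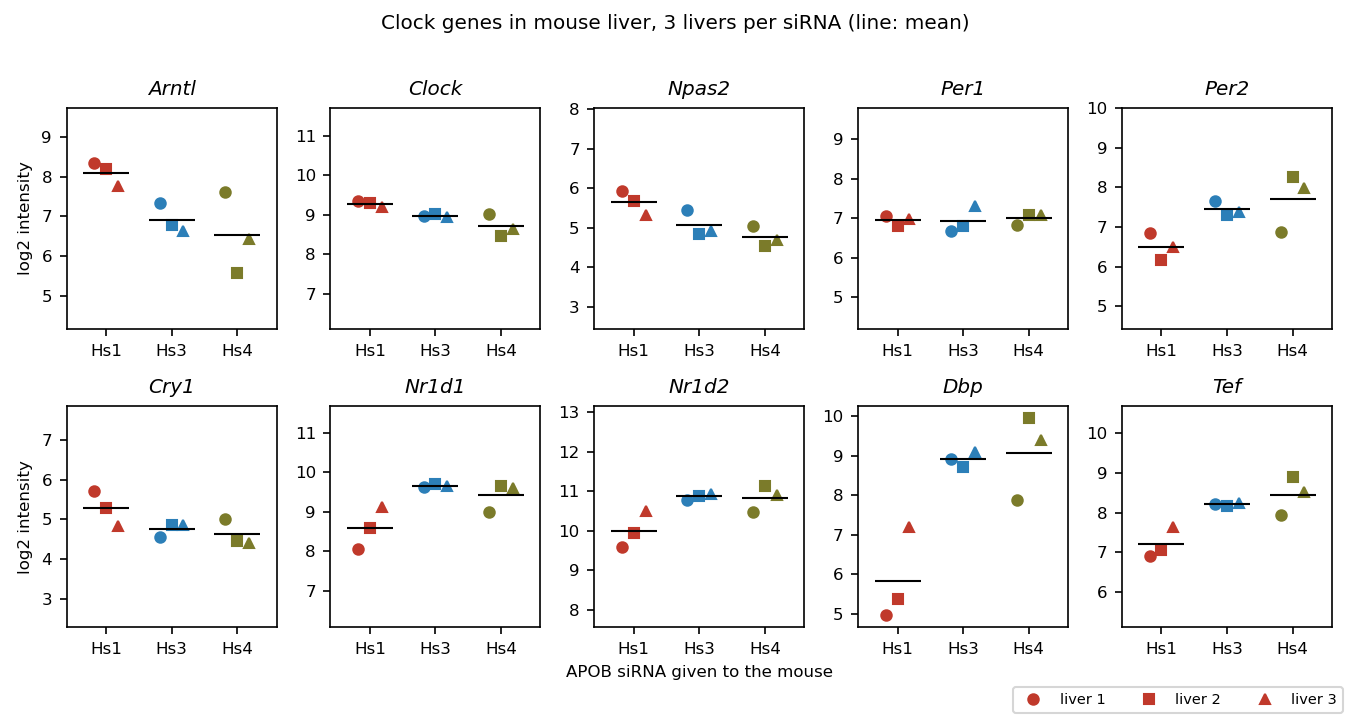
Log2 intensity (vertical axis, each panel spanning the same number of log2 units) of the 10 clock genes in mouse liver by siRNA, with a symbol for each liver and a line at the mean of 3 livers. Dbp, Tef and Per2 were lowest and Arntl and Clock highest in the APOB-Hs1 livers, Per1 was level, and liver 1 of APOB-Hs4 lay toward the APOB-Hs1 livers in 9 of 10 panels.

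Most members also varied together within the APOB-Hs1 and APOB-Hs4 groups. Liver 1 of APOB-Hs4 was below its group's mean for all 5 of Dbp, Tef, Per2, Nr1d1 and Nr1d2 and above it for all 4 of Arntl, Clock, Npas2 and Cry1, and livers 2 and 3 of APOB-Hs4 were the reverse for all 9. Liver 3 of APOB-Hs1 was above its group's mean for 4 of those 5 genes and for 0 of the 4. In the APOB-Hs3 group Dbp (8.72 to 9.10), Tef, Nr1d1, Nr1d2 and Clock varied little between livers. Arntl ran from 6.63 to 7.35 there, Npas2 from 4.84 to 5.46 and Per1 from 6.68 to 7.31. Over the 9 livers, Dbp correlated with Arntl at Pearson -0.91 and Spearman -0.98, with Nr1d2 at 0.98 and 0.95, and with Per1 at 0.20 and 0.47. Taken as deviations from the group means, the Pearson values were -0.79 with Arntl, 0.97 with Nr1d2 and 0.33 with Per1. Per2 followed less closely, at 0.54 with Dbp and 0.31 with Nr1d1. In liver 1 of APOB-Hs1 it lay above its group's mean by 0.35, where Dbp deviated by -0.87. The livers' order by Clock was the exact reverse of that by Dbp. These correlations describe 9 livers that fall partly into groups, and carry no test.

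**Figure D2:**
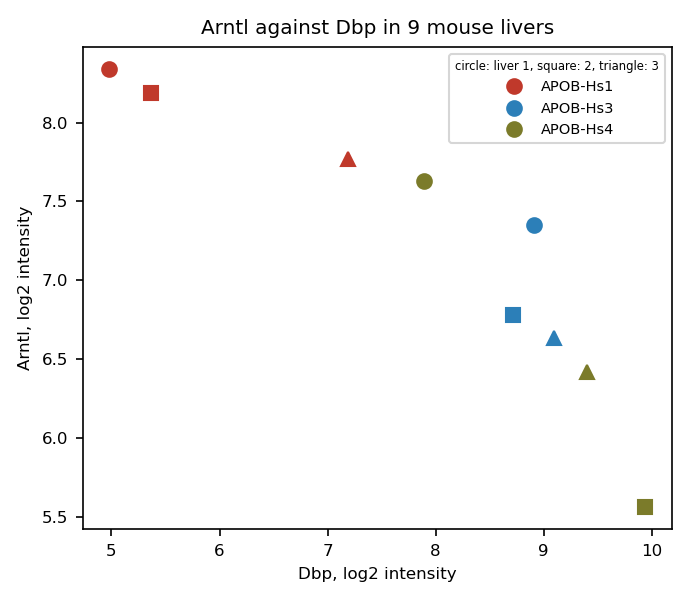
Arntl against Dbp, both as log2 intensity, in 9 mouse livers, coloured by siRNA, with circles, squares and triangles for livers 1, 2 and 3. The livers lie along a falling line from liver 1 of APOB-Hs1 (Dbp 4.98, Arntl 8.34) to liver 2 of APOB-Hs4 (Dbp 9.94, Arntl 5.56), and liver 1 of APOB-Hs4 (7.89, 7.63) is next to liver 3 of APOB-Hs1 (7.19, 7.77).

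Set among all genes by SD over the 9 livers, Dbp (SD 1.77) ranked 3 of 21931. Arntl (0.91) ranked 29, Per2 (0.69) 69, Tef (0.65) 82, Nr1d1 (0.59) 114, Nr1d2 (0.51) 179 and Npas2 (0.47) 227. Cry1 (0.42) ranked 340, Clock (0.29) 1167 and Per1 (0.20) 4534. Among the members, Dbp, an output, was the most variable and Per1 the least. Nothing further is read from these ranks, since the members were chosen with these values known.

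Clock genes outside the set could be tested in the same livers, an addition made after the members' values were seen. Of 46 such genes on the mouse array, 1 passed in 1 comparison, where 72 of 21931 genes (0.328%) passed for APOB-Hs1, 4 (0.0182%) for APOB-Hs3 and 46 (0.210%) for APOB-Hs4. Cry2, the second cryptochrome, read 7.91, 8.23 and 8.16 with APOB-Hs1, 8.69, 8.65 and 8.63 with APOB-Hs3, and 8.49, 8.88 and 8.89 with APOB-Hs4. It was lower with APOB-Hs1 than the mean of the other siRNAs, by a log2 difference of -0.60 (SE 0.105, adjusted p = 0.0449). That call was close to the threshold and was lost after quantile normalization. The count of other clock genes was 0 when liver 1 of APOB-Hs1, liver 1 or 2 of APOB-Hs3, or liver 2 or 3 of APOB-Hs4 was left out, and 20 gene and comparison pairs without liver 1 of APOB-Hs4.

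At an unadjusted p under 0.05, which 13.5% of all genes had with APOB-Hs1, the count was 6 of 11 in the core loop list, 8 of 14 liver output genes, 1 of 10 clock kinases and ubiquitin ligases, and 4 of 11 glucocorticoid and serum induced genes. The livers and the comparison are those of the members, whose values were already seen, so nothing is read from these counts. Nfil3, the D-box repressor that opposes DBP and TEF, read 9.08, 9.05 and 8.04 with APOB-Hs1, 7.71, 7.66 and 7.57 with APOB-Hs3, and between 6.63 and 7.84 with APOB-Hs4. Its APOB-Hs1 livers were the highest 3, with a difference of 1.32 (SE 0.266) that did not pass the test (adjusted p = 0.0714). Other genes that missed the threshold, named after their values were seen, were Ppargc1a, a coactivator of fasting metabolism, at -0.69 (adjusted p = 0.0524), Usp2, a clock-driven ubiquitin protease, at -0.96 (0.184), and Per3 at -0.58 (0.188). Zbtb16, a glucocorticoid-induced repressor, differed by 0.94 (adjusted p = 0.057).

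The cell type markers of the same livers are given beside these values. The summed linear intensity of 10 hepatocyte markers was 138086 to 146330 with APOB-Hs1, 138305 to 141204 with APOB-Hs3 and 135453 to 142347 with APOB-Hs4. For 6 Kupffer cell markers the sums were 829 to 1441, 1236 to 1930 and 1089 to 1331 in the same order of siRNAs, for 5 endothelial cell markers 1885 to 2747, 1960 to 2960 and 2491 to 2950, and for 5 stellate cell markers 5593 to 7463, 5515 to 7546 and 7151 to 7867. The 4 lymphocyte markers found summed to 387 to 435, 370 to 469 and 485 to 490. The 2 red blood cell markers found summed to 9491 to 13973, 5199 to 10463 and 5209 to 10316. Every list overlapped between APOB-Hs1 and at least 1 other siRNA, and no marker passed the test in these comparisons. The part of blood content or cell makeup in the clock genes' values was not tested.

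In the cell lines the members' means over treatments shifted by under 1 log2 unit between any 2 times, and the shifts were not the same in the 3 lines. The values are a description.

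Among the time contrasts computed in HUH7, the largest differences were in NR1D2 and PER2. NR1D2 had a lowest, median and highest log2 intensity of 7.32, 7.78 and 8.03 at 6 h, 6.51, 7.58 and 7.74 at 12 h, 7.26, 7.92 and 8.63 at 24 h, and 7.63, 8.12 and 8.88 at 48 h (8 arrays each). The middle of the range was lowest at 12 h and highest at 48 h, with overlap between all times. The mean at 48 h was 0.66 (SE 0.102) above that at 12 h, or 0.60 without the APOB-Hs1 array at 12 h. PER2 ran 8.15, 8.26 and 8.37 at 6 h, 8.09, 8.18 and 8.39 at 12 h, 8.35, 8.49 and 8.55 at 24 h, and 8.31, 8.50 and 8.76 at 48 h. Its arrays were tighter, and the 24 h mean was 0.27 (SE 0.0486) above the 12 h mean, or 0.25 without that array. ARNTL averaged 5.01 ± 0.14, 5.13 ± 0.10, 5.14 ± 0.26 and 5.36 ± 0.31 at 6, 12, 24 and 48 h (SD, n = 8 each). DBP averaged 6.15 ± 0.09, 6.21 ± 0.19, 6.30 ± 0.12 and 6.35 ± 0.11, so for both genes the arrays of neighbouring times overlapped. PER1 was 0.21 (SE 0.0684) higher at 12 h than at 6 h over all treatments, or 0.18 without that array, but -0.03 on the mock arrays alone. CLOCK was 0.15 (SE 0.0563) higher at 48 h than at 12 h, or 0.13 without that array, and -0.00 on the mock arrays alone. The remaining members, TEF, NR1D1, CRY1 and NPAS2, differed by 0.18 or less in size between the compared times.

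The largest time differences in PLC/PRF/5 were in the PER genes, DBP and ARNTL. PER1 ran 5.22, 5.36 and 5.69 at 6 h, 5.63, 5.72 and 5.88 at 12 h, and 5.58, 5.86 and 6.14 at 48 h (lowest, median, highest of 8 arrays). The 12 h and 48 h arrays lay mostly above those at 6 h, with a difference of 0.35 (SE 0.0747) between 12 h and 6 h. The second PER1 probe set, with a mean of 5.05, gave -0.07 for the same contrast, so the direction rests on the brighter one. DBP ran 7.85, 7.97 and 8.06 at 6 h, 7.92, 8.12 and 8.22 at 12 h, and had a median of 8.49 and a highest value of 9.07 at 48 h. The 48 h arrays were the most scattered, and the difference of 48 h from 12 h was 0.39 (SE 0.0967), or 0.23 without the APOB-Hs2 and APOB-Hs4 arrays at 48 h. PER2 differed by 0.41 (SE 0.119) between the same times, or 0.32 without those arrays. ARNTL averaged 6.10 ± 0.14, 6.38 ± 0.10 and 6.25 ± 0.36 at 6, 12 and 48 h. CLOCK averaged 8.11 ± 0.17, 8.08 ± 0.12 and 7.87 ± 0.39, and NR1D1, CRY1, NPAS2, NR1D2 and TEF differed by 0.22 or less in size between neighbouring times.

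Hepa1-6 had the widest time course of any line in Nr1d1. It read 6.95, 7.15 and 7.04 at 6 h with APOB-Hs1, APOB-Hs3 and APOB-Hs4, and 7.04 with mock. At 12 h the same treatments read 6.47, 6.54, 6.32 and 6.24, at 24 h 6.55, 6.13, 5.84 and 5.99, and at 48 h 6.89, 6.14, 5.59 and 6.16. Every 6 h array lay above every later array, and the 12 h mean differed from the 6 h mean by -0.65 (SE 0.156). Arntl was higher on average at each later time. It read 7.10, 7.10 and 7.09 at 6 h with APOB-Hs1, APOB-Hs3 and APOB-Hs4, and 7.05 with mock. At 12 h the values were 7.25, 7.07, 7.13 and 7.23, at 24 h 7.42, 7.39, 7.41 and 7.20, and at 48 h 7.61, 7.70, 7.50 and 7.60. Every 48 h array lay above every earlier array, and the difference of 48 h from 12 h was 0.44 (SE 0.068). Nr1d2 averaged 8.46 ± 0.10, 8.84 ± 0.26, 8.40 ± 0.40 and 8.52 ± 0.43 at 6, 12, 24 and 48 h (SD, n = 4 each). Cry1, close to background, averaged 4.09 ± 0.07, 4.20 ± 0.13, 4.45 ± 0.36 and 4.52 ± 0.16. Dbp, which spread so widely in liver, averaged 5.25 ± 0.27, 5.38 ± 0.14, 5.37 ± 0.19 and 5.48 ± 0.12.

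**Figure D3:**
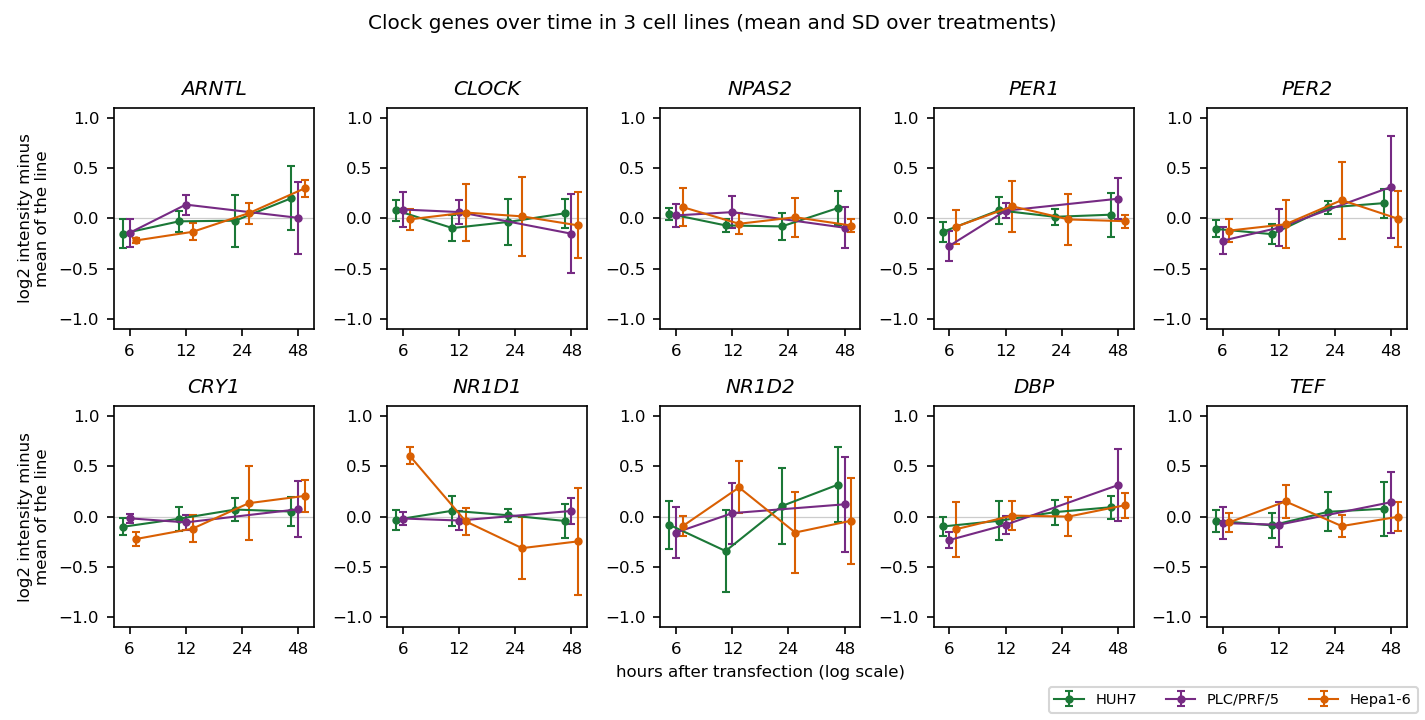
Log2 intensity minus the line's mean (vertical axis) against hours after transfection (log scale) for the 10 clock genes in HUH7, PLC/PRF/5 and Hepa1-6, as mean and SD over 8, 8 and 4 treatments. Nr1d1 at 6 h in Hepa1-6 (7.05, against 6.39 at 12 h) and Arntl at 48 h in Hepa1-6 (7.61, against 7.09 at 6 h) stand out, and the SD of PER2 and DBP is widest at 48 h in PLC/PRF/5.

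Other clock genes, which the choice of the members did not use, were tested over time. In HUH7, where 6182 of 17836 genes (34.7%, 19.2% higher and 15.5% lower) passed between 48 h and 12 h, 3 of 11 core loop genes rose and 1 fell, 0 of 9 kinases and ligases rose and 1 fell, 2 of 14 liver outputs rose and 6 fell, and 4 of 11 glucocorticoid and serum induced genes rose and 4 fell. HLF, the third member of the family of DBP and TEF, changed at every step, where 18.6%, 12.8% and 12.4% of all genes passed. It differed by -0.46 between 12 h and 6 h (adjusted p = 3.05e-05), 0.33 between 24 h and 12 h (0.00223) and 0.34 between 48 h and 24 h (0.00179). NFIL3 rose by 0.27 between 48 h and 12 h (SE 0.0469, adjusted p = 7.17e-05) and TIMELESS, a replication and clock protein, by 0.24 (SE 0.0344). BHLHE40, an E-box repressor of the clock, fell by 0.41 (SE 0.073). Of the outputs, PPARGC1A rose by 0.67 (SE 0.0818) and ELOVL3, a fatty acid elongase, by 0.37, while ALAS1, the first enzyme of heme synthesis, fell by 0.26 and KLF10 by 0.27. Of the induced genes, KLF9 rose by 0.72 and ZBTB16 by 0.67, both glucocorticoid targets, and ATF3, a stress-induced repressor, fell by 0.80 and DUSP1 by 0.43.

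Between 48 h and 12 h 2320 of 17836 genes (13.0%, 5.85% higher and 7.15% lower) passed in PLC/PRF/5. Of the core loop 0 of 11 rose and 2 fell, of kinases and ligases 0 of 9 rose and 2 fell, of outputs 2 of 14 rose and 2 fell, and of induced genes 2 of 11 rose and 4 fell. BHLHE40 fell by 0.42 (SE 0.0837, adjusted p = 0.00227) and BMAL2, the paralogue of ARNTL, by 0.27 (0.048). PRKAA2, a subunit of the energy sensor AMPK, which in mouse cells marks CRY1 for degradation, fell by 1.04 (SE 0.112), and CSNK1D, a kinase of the PER proteins, by 0.36 (SE 0.0808). KLF10 fell by 1.05 (SE 0.104) and SGK1 by 0.69, and ELOVL3 rose by 0.47. Between 12 h and 6 h, where 624 genes (3.50%) passed, PER3 rose by 0.35 (SE 0.0772, adjusted p = 0.0135), beside the PER1 difference given above.

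In Hepa1-6, 2556 of 21931 genes (11.7%, 5.13% higher and 6.52% lower) passed between 48 h and 12 h, and 170 (0.775%) between 12 h and 6 h. Of the core loop 3 of 11 rose and 2 fell, of kinases and ligases 2 of 10 rose and 0 fell, of outputs 2 of 14 rose and 2 fell, and of induced genes 5 of 11 rose and 0 fell. Gm129 (Ciart), a repressor of the ARNTL and CLOCK pair, rose by 0.84 (SE 0.192, adjusted p = 0.00951) and Rora, the activator of Arntl, by 0.57 (SE 0.136, adjusted p = 0.0122). Cry2 fell by 0.70 (SE 0.114) and Nfil3 by 0.48 (SE 0.14). Egr1, an immediate early gene, rose by 1.12 (SE 0.131), Fos by 0.61 (SE 0.184) and Klf9 by 0.60 (SE 0.0748). NFIL3 rose in HUH7 and fell in Hepa1-6, and BHLHE40 fell in both human lines while Bhlhb2, its mouse counterpart, rose by 0.37 in Hepa1-6. These differences between lines were not tested, and species, line and array cannot be told apart in them. Without single treatments the number of gene and contrast pairs that passed in Hepa1-6 was 9 to 17, against 23 with all arrays.

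Against mock, few members responded to the siRNAs, and the clearest was NR1D2 with APOB-Hs1. This comparison was not used to choose the members. Over 8 contrasts (7 siRNAs and their mean), 1 of 80 member and contrast pairs passed the test in HUH7. Of the 70 pairs with single siRNAs 13 had an unadjusted p under 0.05, beside 11.8% of all gene and siRNA pairs. Of all genes there, 2.53% passed for APOB-Hs1, 2.42% for APOB-Hs2, 2.22% for APOB-Hs3, 1.63% for APOB-Hs4, 0.00% for Apob-Mm1, 1.29% for Apob-Mm2, 0.897% for RAD18 and 0.207% in the mean. For PLC/PRF/5, 0 of 80 pairs passed by limma and 7 of the 70 had an unadjusted p under 0.05, beside 7.36% of all pairs, where the adjusted shares of all genes were 0.600%, 0.364%, 0.292%, 0.202%, 0.00%, 0.135%, 0.235% and 0.00561% in that order. For Hepa1-6, 0 of 40 passed by limma and 7 of the 30 with single siRNAs had an unadjusted p under 0.05, beside 11.9% of all pairs, where 0.766% of all genes passed for APOB-Hs1, 0.588% for APOB-Hs3, 1.19% for APOB-Hs4 and 0.0365% in the mean. The counts past the adjusted test are thus near the background.

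NR1D2 in HUH7 read 7.32, 6.51, 7.26 and 7.63 with APOB-Hs1 at 6, 12, 24 and 48 h, against 7.77, 7.69, 7.89 and 8.28 with mock. At every time the APOB-Hs1 array lay below all 7 other arrays. It fell by a log2 difference of -0.72 (SE 0.144, adjusted p = 0.00326), or 1.65-fold, and by -0.45, -1.17, -0.63 and -0.64 at the 4 times. Its 3 probe sets differed by -0.72, -0.52 and -0.62. The 12 h array was among those of wide spread, and without it the difference was -0.60 (adjusted p = 0.0233). The call was lost without the 12 h time (-0.57, adjusted p = 0.097) and without the 24 h time (-0.76, adjusted p = 0.0606). Of all genes, 19.4% lay on the same side of mock at every time with APOB-Hs1.

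NR1D2 in PLC/PRF/5 read 5.81, 5.75 and 5.90 with APOB-Hs1 at 6, 12 and 48 h, against 6.28, 6.41 and 6.42 with mock. The APOB-Hs1 arrays were again below mock at each time, as 35.9% of all genes were on 1 side of it, but the difference of -0.55 (SE 0.181) did not pass (adjusted p = 0.285). Its 3 probe sets differed by -0.55, -0.44 and -0.50. The difference between the lines' responses was -0.20 (SE 0.265, adjusted p = 1.000), so none was detected. In Hepa1-6 Nr1d2 read 8.41, 8.71, 8.57 and 8.97 with APOB-Hs1, against 8.35, 8.98, 8.65 and 8.61 with mock, a difference of 0.02 (SE 0.157). With APOB-Hs4 it read 8.57, 8.56, 7.80 and 7.94, above mock at 6 h and below it at the later times, a difference of -0.43 (SE 0.157, adjusted p = 0.222) that became -0.65 (adjusted p = 0.0427) without the 6 h arrays. In liver, where there was no mock, the APOB-Hs1 livers had the lower Nr1d2 values described above.

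APOB-Hs3 stood on the other side of mock for NR1D2 in both human lines, short of the threshold. In HUH7 it read 7.78, 7.72, 8.63 and 8.88 with APOB-Hs3, and the difference from mock was 0.34 (SE 0.144, adjusted p = 0.26). The PLC/PRF/5 values were 6.33, 6.76 and 7.43, a difference of 0.47 (SE 0.181, adjusted p = 0.509). At the latest time its array was the highest of 8 in either line.

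CLOCK was lowest with APOB-Hs3 in the human lines from 12 h on, again short of the threshold. In HUH7 it read 7.44, 7.10, 6.94 and 7.20 with APOB-Hs3, against 7.45, 7.37, 7.46 and 7.36 with mock, a difference of -0.24 (SE 0.0796, adjusted p = 0.122) that became -0.32 (adjusted p = 0.014) without the 6 h arrays. The PLC/PRF/5 values were 7.90, 7.83 and 7.14 with APOB-Hs3, against 8.21, 8.17 and 8.11 with mock, a difference of -0.54 (SE 0.166, adjusted p = 0.271). The 3 probe sets of CLOCK had the same sign in each line (-0.24, -0.30 and -0.10 in HUH7, -0.54, -0.47 and -0.48 in PLC/PRF/5). In Hepa1-6 Clock read 8.72, 9.06, 9.11 and 8.92 with APOB-Hs1 and 8.47, 8.45, 8.17 and 8.14 with APOB-Hs4, against 8.54, 8.60, 8.66 and 8.60 with mock. APOB-Hs1 lay above mock and APOB-Hs4 below it at every time, by 0.36 (SE 0.0914, adjusted p = 0.108) and -0.29 (SE 0.0914, adjusted p = 0.151), as 23.9% and 22.6% of all genes lay on 1 side of mock with those siRNAs. Both passed without the 6 h arrays (0.41, adjusted p = 0.0445, and -0.37, adjusted p = 0.0473). The other Clock probe sets gave 0.65 and 0.33 with APOB-Hs1, and -0.05 and -0.14 with APOB-Hs4. The APOB-Hs1 difference also passed as the mean of the probe sets (0.44, adjusted p = 0.0492) and without dim genes (0.36, adjusted p = 0.046).

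**Figure D4:**
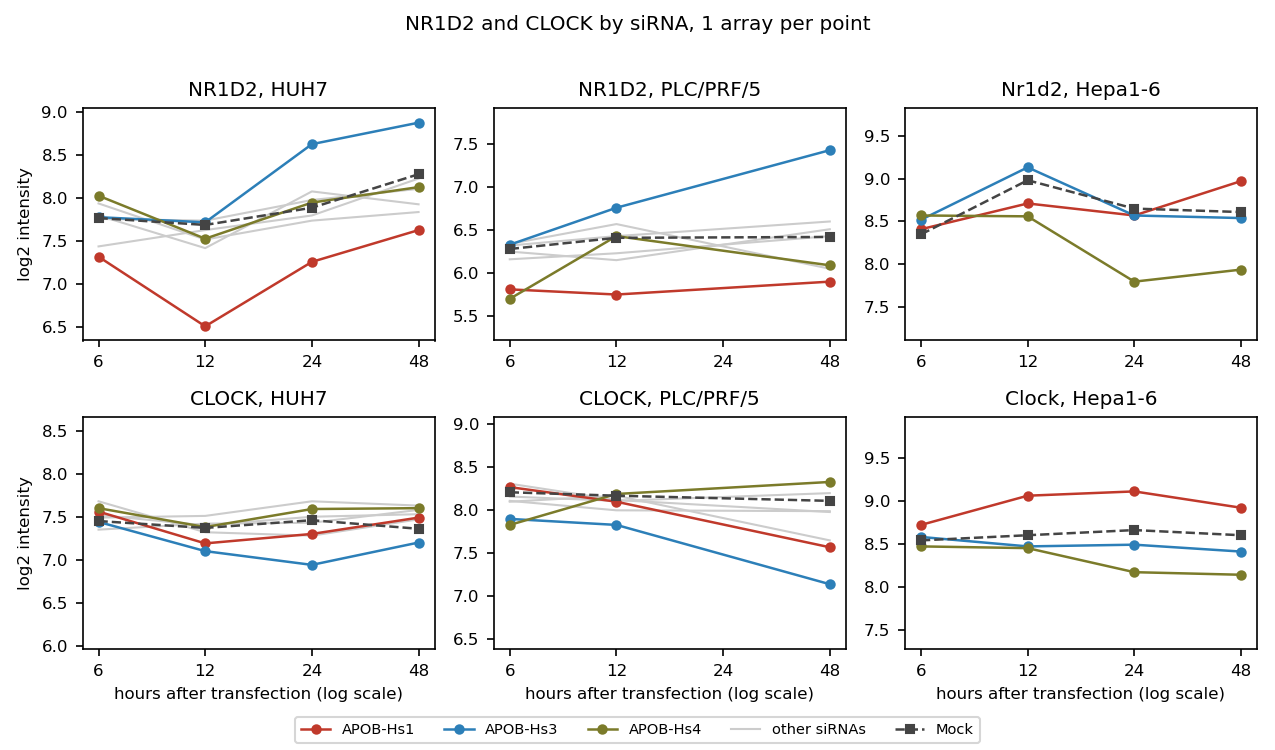
Log2 intensity of NR1D2 (top) and CLOCK (bottom) against hours after transfection (log scale) in HUH7, PLC/PRF/5 and Hepa1-6, 1 array per point, with APOB-Hs1, APOB-Hs3 and APOB-Hs4 in colour, other siRNAs in grey and mock dashed. NR1D2 with APOB-Hs1 is the lowest line in HUH7 at all 4 times (6.51 at 12 h, against 7.69 with mock), and CLOCK with APOB-Hs3 is the lowest from 12 h on in both human lines.

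No other member passed with all arrays, each gene read from its brightest probe set and dim genes kept. ARNTL with APOB-Hs1 differed by 0.41 (SE 0.131, adjusted p = 0.105) in HUH7, or 0.49 (adjusted p = 0.0531) without the 12 h array, and 0.29 (SE 0.137, adjusted p = 0.576) in PLC/PRF/5. PER2 with APOB-Hs2 in PLC/PRF/5 differed by 0.70 (SE 0.194, adjusted p = 0.187), or 0.38 (adjusted p = 0.872) without the 48 h arrays of widest spread. By time it differed by 0.23, 0.54 and 1.32 at 6, 12 and 48 h. For the difference of responses between the human lines, 0 of 70 member and siRNA pairs passed by limma (3 at an unadjusted p under 0.05, beside 3.53% of all pairs, lowest adjusted p = 0.772), where 0.0112% of all genes passed for RAD18, 0.00561% each for APOB-Hs1, APOB-Hs4 and Apob-Mm2, and 0.00% for the other siRNAs. Of the other clock genes, HLF fell in HUH7 with APOB-Hs1 (-0.46, SE 0.0992, adjusted p = 0.00711) and with APOB-Hs4 (-0.41, adjusted p = 0.0317). WEE1, a cell cycle kinase under clock control, rose with APOB-Hs2 (0.57), APOB-Hs4 (0.44) and Apob-Mm2 (0.46), and Prkaa2 fell in Hepa1-6 with APOB-Hs4 (-0.46, SE 0.0925, adjusted p = 0.0269). Others of the lists passed in HUH7. PRKAA1 fell and DUSP1 rose with APOB-Hs1, ZBTB16 rose with APOB-Hs2, and ATF3 rose with APOB-Hs2 and APOB-Hs4. NR0B2 fell with Apob-Mm2 and RAD18, and with Apob-Mm2 MYC fell and SGK1 rose. Egr1 rose in Hepa1-6 with APOB-Hs4 (0.82, SE 0.131, adjusted p = 0.0082). The shares of all genes that passed with each siRNA are given above. These genes were named after their values were seen.

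The human lines differed in the levels of 9 of the 10 members, where 84.9% of all genes passed the same test over 24 arrays each at 6, 12 and 48 h, so the count is near the background. The sizes were large for 5 genes. DBP averaged 6.24 ± 0.16 in HUH7 and 8.18 ± 0.31 in PLC/PRF/5 (SD, n = 24 each), a difference of -1.95 (SE 0.0492), or 3.85-fold. NPAS2 averaged 7.88 ± 0.13 in HUH7 and 5.95 ± 0.17 in PLC/PRF/5, a difference of 1.93 (SE 0.0444). PER2 averaged 8.33 ± 0.17 in HUH7 and 6.58 ± 0.39 in PLC/PRF/5, a difference of 1.75 (SE 0.054). In these 3 genes no array of HUH7 overlapped one of PLC/PRF/5, as in 28.0% of all genes. NR1D2 averaged 7.78 ± 0.43 in HUH7 and 6.31 ± 0.36 in PLC/PRF/5, a difference of 1.47 (SE 0.0688) that its other probe sets gave as 1.74 and 1.35. ARNTL averaged 5.17 ± 0.25 in HUH7 and 6.24 ± 0.25 in PLC/PRF/5, a difference of -1.08 (SE 0.0571). Without the arrays of widest spread the 5 differences were -1.91 for DBP, 1.92 for NPAS2, 1.79 for PER2, 1.46 for NR1D2 and -1.12 for ARNTL, and 9 members passed as before.

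Genes of the same role stood on opposite sides, where 36.1% of all genes were higher and 48.9% lower in HUH7, so nothing is read from this. TEF, PER1 and ARNTL were dimmer than the median gene in both lines. Of the partners of ARNTL, CLOCK was lower in HUH7 (-0.58, SE 0.0527) and NPAS2 higher. Of the period genes, PER1 was lower in HUH7 (-0.54, SE 0.0421, or -1.19 by its dimmer probe set) and PER2 higher. Of the receptors, NR1D1 was lower (-0.43, SE 0.0345) and NR1D2 higher, and of the outputs, DBP was lower and TEF higher (0.55, SE 0.0403). CRY1 differed by 0.06 (SE 0.0335, adjusted p = 0.113) by its brightest probe set, at 10.20 ± 0.13 in HUH7 and 10.14 ± 0.17 in PLC/PRF/5, and its dim probe set gave 0.36. The median over all genes was -0.07.

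Against mouse liver, 9 of the 10 members were lower in Hepa1-6 with the same 3 siRNAs, where 26.9% of all genes were lower, 56.5% higher and 83.5% passed in either direction. The median difference was -0.95 over the members and 0.23 over all genes. Nr1d1 averaged 6.47 ± 0.49 in Hepa1-6 (SD, n = 12) and 9.22 ± 0.59 in liver (SD, n = 9), a difference of -2.75 (SE 0.207), or 6.74-fold. Per2 averaged 4.73 ± 0.29 in Hepa1-6 and 7.22 ± 0.69 in liver, -2.50 (SE 0.168), and Nr1d2 averaged 8.52 ± 0.37 in Hepa1-6 and 10.57 ± 0.51 in liver, -2.04 (SE 0.163). In these 3 genes no array of Hepa1-6 overlapped a liver, as in 56.3% of all genes. Per2's second probe set went the other way (0.17), so the Per2 difference rests on its brightest probe set.

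Dbp averaged 5.38 ± 0.21 in Hepa1-6 and 7.95 ± 1.77 in liver, a difference of -2.57 (SE 0.369). The 2 lowest livers, both of APOB-Hs1 (4.98 and 5.37), lay within the Hepa1-6 range of 4.93 to 5.60. Tef differed by -1.23 (SE 0.14), Npas2 by -0.66 (SE 0.115), Cry1 by -0.56 (SE 0.144) and Per1 by -0.36 (SE 0.0813). Clock differed by -0.41 (SE 0.0665) by its brightest probe set and by -3.45 and -2.24 by its other probe sets, a disagreement that leaves its size unsettled. Cry1 did not pass with the 48 h arrays of Hepa1-6 alone (-0.34, adjusted p = 0.13). Arntl averaged 7.31 ± 0.22 in Hepa1-6 and 7.19 ± 0.91 in liver, a difference of 0.13 (SE 0.213, adjusted p = 0.577). That difference was -0.34 after quantile normalization and 0.33 as a mean of the probe sets (adjusted p = 0.011), so it has no settled direction. Without liver 1 of APOB-Hs4 the differences were -2.78 for Nr1d1, -2.56 for Per2, -2.65 for Dbp and 0.23 for Arntl, and 9 members passed as before. The summed hepatocyte markers were 8728 to 14389 in Hepa1-6 and 135453 to 146330 in liver, and the part of cell type in these differences was not tested.

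**Figure D5:**
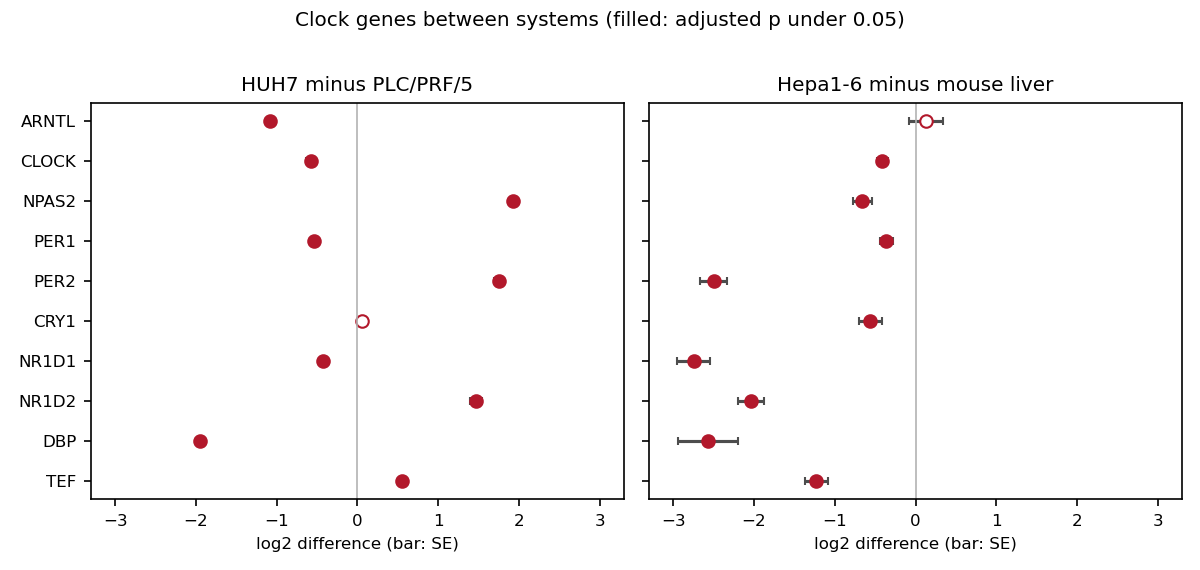
Log2 difference with its SE for the 10 clock genes, HUH7 minus PLC/PRF/5 on the left and Hepa1-6 minus mouse liver on the right, filled where the adjusted p was under 0.05. The human lines differ in both directions, from -1.95 for DBP to 1.93 for NPAS2, whereas on the right all genes but Arntl (0.13) are below 0.

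For the other clock genes, counts between the systems are given for the core loop and the outputs, and between Hepa1-6 and liver also for the induced genes. Between HUH7 and PLC/PRF/5, where 36.1% of all genes were higher and 48.9% lower in HUH7, 6 of 11 core loop genes were higher and 2 lower, and 2 of 14 outputs were higher and 7 lower. Between Hepa1-6 and liver, 56.5% of all genes were higher and 26.9% lower in Hepa1-6. In that comparison 4 of 11 core loop genes were higher and 5 lower, and 4 of 14 outputs were higher and 8 lower. Of the glucocorticoid and serum induced genes 8 of 11 were higher and 2 lower. The list medians in Hepa1-6 against liver were 0.14 for the core loop, -0.65 for outputs and 1.35 for induced genes, beside 0.23 over all genes.

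The genes most like DBP and ARNTL differed from system to system. Over the 9 livers those most like Dbp by Pearson correlation were Tef (0.988), Nr1d2 (0.982), Gmfb (0.971), Tnpo1 (0.969) and Idh3g (0.964), of which 2 are members. Those most like Arntl were Prdx4 (0.986), Avpr1a (0.986), Rpn1 (0.978), Mtmr4 (0.973) and Phospho2 (0.971). Over 16 Hepa1-6 arrays the closest to Arntl were Echs1 (0.971), Lmbrd2 (0.947), Timm17b (0.945), Ndufa6 (0.939) and Lgr4 (0.939), and the closest to Dbp was Tnfaip2 (0.833), followed by Zfp105, 4932425I24Rik, A330102I10Rik and Pga5. Over 24 PLC/PRF/5 arrays the closest to DBP were ASB9 (0.937), GCHFR (0.914), IWS1 (0.908), PCK1 (0.903) and COASY (0.900), and the closest to ARNTL were MED20 (0.875), ACOT7, NIF3L1, DDX50 and STAMBP. Over 32 HUH7 arrays the highest values were lower, 0.673 for SNORD33 with DBP, followed by LENG1, BRAT1, S100A12 and LELP1, and 0.770 for MAST3 with ARNTL, followed by GPR37, PIGV, YIPF3 and XYLT2. The arrays of a system share treatments and times, and no p is given.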

How the data were processed

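Messenger RNA was profiled on 81 1-colour oligonucleotide arrays, 56 human and 25 mouse. The authors deposited 1 intensity per probe set and array, which the submitters' processing notes credit to robust multi-array averaging (RMA). Its version, detection calls and the probes' genome build were not given in the sources used here. Deposited intensities were linear, and their log2 was taken here, giving log2 values whose median over probe sets was 4.99 to 5.15 on the human and 4.3 to 4.5 on the mouse arrays. No column came from another series. RMA shrinks differences between dim probe sets, and precision is limited by how many arrays a comparison has.

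Groups came from the labels. Unnamed probe sets were not used, and each gene was read from its probe set with the highest mean over that species' arrays. Models were fitted over all named genes with limma 3.58.1 (lmFit and eBayes) under R 4.3.3 (tables read by data.table version 1.17.8), and p-values were adjusted by Benjamini-Hochberg within a contrast (two-sided, threshold 0.05). In the lines, treatment and time were factors, so time points stand in place of replicates. HUH7 was compared with PLC/PRF/5 over shared treatments and times, and Hepa1-6 with liver over shared siRNAs. Each siRNA in liver was set against the other 2 averaged. Liver numbers 1 to 3 were checked as a pairing. Same-numbered livers correlated at -0.14 to 0.19 in their deviations from the group means, so no pairing was assumed. Plots and summaries used Python 3.11.15 with numpy 2.4.6, pandas 2.3.3 and matplotlib 3.10.9. The fits were tested on simulated data.

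The members, the 4 lists of other clock genes and the 6 lists of cell type markers were chosen with earlier results of these data known. All members are named. Other clock genes are named over time where they passed, at most 4 per list and contrast by size, and others are said to be chosen after their values were seen. Alternatives tried were averaging a gene's probe sets, quantile normalization, a filter removing genes dimmer than the median gene, omission of each time, treatment or liver, mock arrays alone, a replicate block in liver, and Hepa1-6 at 48 h alone. Leaving out the arrays of widest spread was added after seeing the data.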

Additional observations from a re-analysis of the deposited data

Results flagged for a closer look

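Of 110 sets of arrays, each of 1 member at 1 time in 1 line, 9 held an array that stood apart from the rest by Dixon's test, where chance gives about 1 in 20. The members share their arrays, so the sets are not independent. In HUH7, NR1D2 read 6.51 with APOB-Hs1 at 12 h, against 7.42 to 7.74 in the other treatments, and ARNTL read 5.32 with APOB-Hs4 at 6 h, against 4.85 to 5.05. In PLC/PRF/5 at 48 h, PER2 read 7.96 with APOB-Hs2, against 6.35 to 6.99, ARNTL read 5.48 with APOB-Hs2, against 6.17 to 6.70, and NR1D2 read 7.43 with APOB-Hs3, against 5.90 to 6.60. That APOB-Hs2 array, and the HUH7 array of APOB-Hs1 at 12 h, were among those of widest spread over all genes. TEF in PLC/PRF/5 at 12 h read 5.07 with Apob-Mm2, against 5.47 to 5.83. In Hepa1-6 at 24 h, Nr1d2 read 7.80 with APOB-Hs4, against 8.57 to 8.65, Npas2 read 4.25 with APOB-Hs3, against 4.61 to 4.67, and Arntl read 7.20 with mock, against 7.39 to 7.42.

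CLOCK with APOB-Hs4 lay above mock at every time in HUH7, by 0.13 on average, and below mock at every time in Hepa1-6, by -0.29 on average. The difference between the lines was not tested. In HUH7 28.0% of all genes, and in Hepa1-6 22.6%, lay on the same side of mock at every time with this siRNA.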

How the results depend on the processing

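Against mock, the number of member and contrast pairs past the test was 1 in HUH7, and 0 to 2 without single times, and 0 in PLC/PRF/5 under every alternative run. In Hepa1-6 it was 0, but 1 with the mean of all probe sets, 1 without dim genes, and 0 to 3 without single times. For other clock genes over time, the count in Hepa1-6 was 23, and 9 to 17 without single treatments. In liver, genes of all kinds past the test numbered 122 over the 3 comparisons, 190 without dim genes, and 29 to 644 without single livers, the highest being without liver 1 of APOB-Hs4. Other clock genes in liver numbered 1, but 0 after quantile normalization, 3 without dim genes, and 0 to 20 without single livers. With a replicate block by liver number, which the labels do not support as a pairing, the counts were 186 genes and 5 other clock genes. On mock arrays alone, 13 of 40 time differences in HUH7, 5 of 20 in PLC/PRF/5 and 10 of 40 in Hepa1-6 had the other sign. All of these were 0.21 or less in size over all treatments, among them PER1 at 12 h against 6 h (-0.03 on mock) and CLOCK at 48 h against 12 h (-0.00) in HUH7. The cause of these changes was not tested. Leaving out dim genes also means fewer genes tested. Between Hepa1-6 and liver, 12394 genes were higher and 5910 lower with a median of 0.23, and 10164 higher and 7663 lower with a median of 0.09 after quantile normalization. Of single values, 329 of 330 liver differences, 188 of 193 tested differences and 974 of 1000 time differences kept their call, or moved by less than the spread between arrays. With 1 array per treatment and time, differences smaller than the spread of arrays were not detectable.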
